A study of Mus musculus with 13 samples.

Results

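The data described here are the counts of miR-146a and miR-146b, a pair of microRNAs (miRNAs) with the same seed that come from separate loci, in thymic invariant natural killer T (iNKT) cells. The members were chosen by name, without use of their values. They are the hairpins (precursor sequences) listed as mmu-mir-146a and mmu-mir-146b, 2 of the 1127 counted. The 5p and 3p arms of both, 4 of the 1297 mature sequences counted, belong to the members as well. A hairpin level here is the level of small RNA reads assigned to a hairpin sequence, and these need not be precursor molecules. Small RNA was sequenced from 6 wild type (WT) mice and 7 mice of the genotype Tet2-/-Tet3flx/flxcd4cre (*Tet2/3* DKO), with 1 library per mouse. All mice were 21 to 25 days old, and their iNKT cells, lymphocytes whose semi-invariant TCR recognizes lipid antigens, were sorted as live cells positive for TCRβ and for a lipid-loaded tetramer. Mice of the DKO genotype lack *Tet2* in every cell, and lack *Tet3* only in cells that have expressed the CD4 cre transgene. The WT mice were C57BL/6 mice without the cre transgene, so an effect of cre and an effect of the deletions cannot be told apart. The sex of each mouse and the sorter used for it are not in the labels, and their part in the results was not tested.

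The miR-146 family is known as a brake on inflammatory signalling. NF-kB, a transcription factor switched on by antigen receptors, Toll-like receptors and cytokine receptors, induces miR-146a, and the mature miRNA in turn represses the adaptor TRAF6 and the kinase IRAK1, which act upstream of NF-kB. In T cells miR-146a is known to limit the response to antigen and to be needed by regulatory T cells, while miR-146b is less studied and is known mainly from macrophages and other myeloid cells. A primary transcript is cut by DROSHA to a hairpin, and the hairpin is cut by DICER to a duplex whose strands are the 5p and 3p arms. The 7 bases of the seed, positions 2 to 8 from the 5′ end, pair with the target mRNA.

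The mature sequences are shown because the family is defined by them, with the seed in capitals (RefSeq, GRCm38.p6, 5′ to 3′).
miR-146a-5p: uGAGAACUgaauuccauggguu
miR-146b-5p: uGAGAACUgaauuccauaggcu
miR-146a-3p: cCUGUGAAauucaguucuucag
miR-146b-3p: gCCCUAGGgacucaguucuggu

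All 4 arms matched a RefSeq entry. The seed GAGAACU of the 5p arms was held by 2 of the 1679 mouse mature sequences in that collection, which were miR-146a-5p and miR-146b-5p, so no further sequence belongs to the family by seed. The 5p arms are both 22 bases long and are identical at 20 positions, counted from 1 at the 5′ end. They differ by G18A and U21C, where the first letter is the base of miR-146a-5p. The first 17 bases are shared, so a read cut short before position 18 fits both sequences. The 3p arms have different seeds and were identical at 4 of 22 positions when compared base by base.

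The hairpins are shown because the loci were counted on them as well, with the mature arms in capitals.
mir-146a: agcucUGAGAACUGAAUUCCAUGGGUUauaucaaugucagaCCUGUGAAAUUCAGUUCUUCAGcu
mir-146b: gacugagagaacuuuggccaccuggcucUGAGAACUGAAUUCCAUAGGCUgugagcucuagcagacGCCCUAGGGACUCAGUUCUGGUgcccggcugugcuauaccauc

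In GRCm38, the assembly that mm10 denotes, mir-146a occupies bases 43374397 to 43374461 of chromosome 11 (minus strand). No other gene of the GENCODE annotation overlaps it there, and the nearest protein-coding or long noncoding genes on either side are the noncoding *Gm12148*, 11021 bases away, and *Gm12147*, 63309 bases away. The mir-146b hairpin occupies bases 46342762 to 46342870 of chromosome 19 (plus strand), inside the protein-coding gene *Mfsd13a* of the same strand and outside its exons. The hairpins are thus an intergenic one of 65 bases and an intronic one of 109 bases.

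The authors deposited raw counts. Hairpin counts summed to 469117 in the shallowest and 1110226 in the deepest WT library, and to 728653 and 1910526 for *Tet2/3* DKO. Mature counts summed to 1110852 and 2582057 (WT) and to 1837631 and 4361963 (*Tet2/3* DKO). Levels are given as CPM, the count per 1000000 counts of the library after TMM scaling, which multiplies each total by a factor that balances the bulk of miRNAs. Genotypes were compared with the quasi-likelihood test of edgeR over all miRNAs with enough counts, and a difference is called at an adjusted p-value under 0.05. Differences are thus relative to the bulk of miRNAs, and scaling by library size alone raised the median log2 fold change by 0.34 over all tested hairpins and by 0.25 over all tested mature sequences. Relative to that median, the log2 fold changes under the 4 scalings lay between -0.36 and -0.34 for mir-146a, 0.48 and 0.53 for mir-146b, -0.027 and 0.011 for miR-146a-5p, and 0.38 and 0.41 for miR-146b-5p. Also, in sorted bulk samples a change in the mix of cells and a change of the level per cell cannot be told apart. In these libraries mir-181a-1, mir-181b-1, mir-150 and mir-142a, known from thymocytes and other T cells, were abundant in both genotypes. Their summed hairpin level ranged over 154541 to 172021 CPM (WT) and 122166 to 155162 CPM (*Tet2/3* DKO).

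Of the miR-146 sequences, miR-146a-5p was the abundant one in both genotypes. It took the 29th place of 401 tested mature sequences by mean CPM in WT and the 33rd in *Tet2/3* DKO, and it held 0.447% of all mature counts in WT and 0.516% in *Tet2/3* DKO. Mature miR-146b-5p, of the same length, took the 214th place in WT and the 192nd in *Tet2/3* DKO. The mean level of miR-146a-5p was 120 times that of miR-146b-5p in WT and 90.1 times in *Tet2/3* DKO. The hairpins were less far apart. Mean CPM of mir-146a was 28.3 times that of mir-146b in WT and 15.6 times in *Tet2/3* DKO. Divided by the length of the annotated hairpin, the ratios were 47.4 and 26.1. Small RNA reads need not spread over that length, so the first ratios are the plainer ones.

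The 3p arms were at the limit of detection. Over the 6 WT libraries miR-146a-3p had 0 counts beside 51955 of miR-146a-5p, which allows a share of up to 0.00577% by the limit of 3 counts and up to 0.00710% by the exact 95% interval. Over the 7 *Tet2/3* DKO libraries it had 3 counts beside 126926, a share of 0.00236% of both arms (exact 95% interval from 0.000487% to 0.00691%). Mature miR-146b-3p was a larger part of its own duplex. It had 8 counts beside 464 of miR-146b-5p in WT, or 1.69% of both arms (exact interval from 0.735% to 3.31%), and 9 beside 1422 in *Tet2/3* DKO, or 0.629% (exact interval from 0.288% to 1.19%). WT replicate 3 held 6 of the 8 WT counts. These intervals and limits cover counting error only, and neither 3p arm had enough counts to be tested.

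The 4 sequences with enough counts were compared between genotypes. None of them was called by edgeR, where 59.7% of the 350 tested hairpins and 55.6% of the 401 tested mature sequences were called. At an unadjusted p under 0.05 the count was also 0 of 4, as it was with DESeq2 and limma-voom before and after adjustment. The WT and *Tet2/3* DKO values overlapped for all 4, while the genotypes were apart for 32.0% of tested hairpins and 27.2% of tested mature sequences. The sequences nevertheless behaved differently from mouse to mouse, as the plot of the members by mouse shows.

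**Figure D1:**
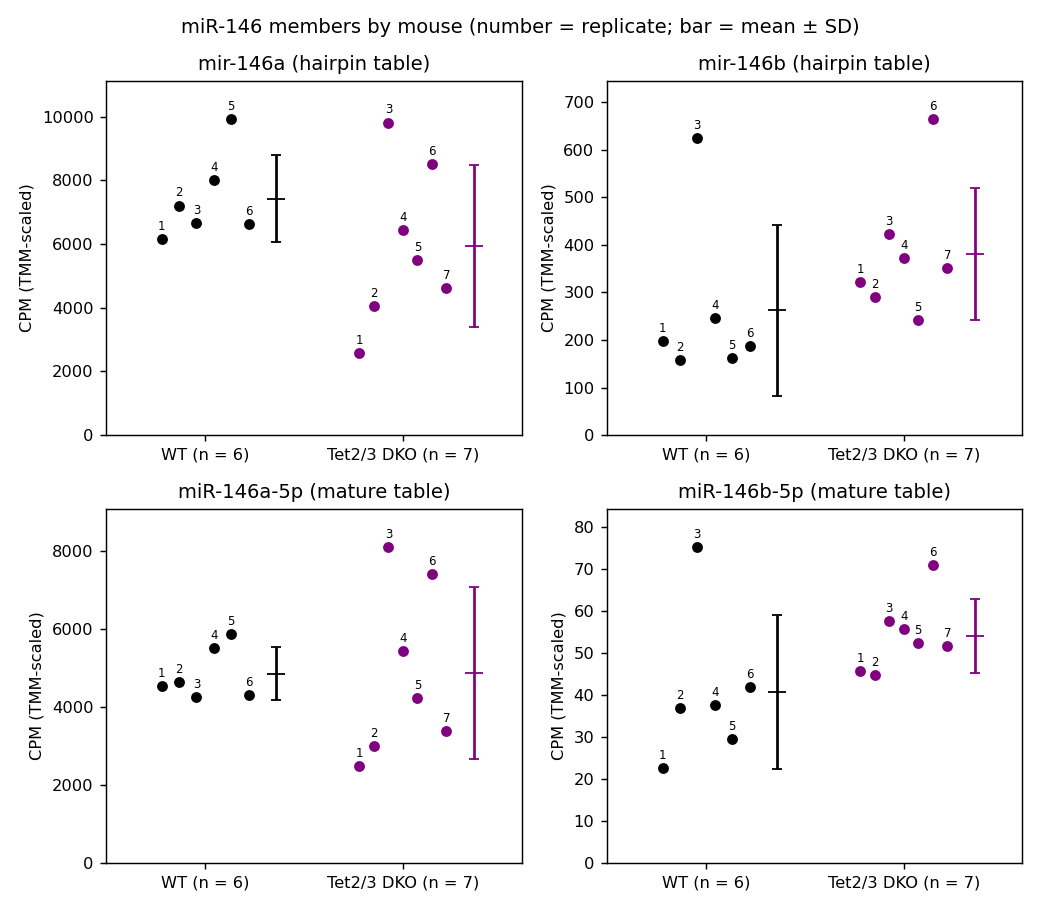
Levels of the hairpins (upper row) and 5p arms (lower row) of miR-146a and miR-146b in CPM of the TMM-scaled library on a linear axis from 0, 1 point per mouse labelled with its replicate number, with WT in black (n = 6), *Tet2/3* DKO in purple (n = 7) and bars for the mean ± SD. For miR-146a-5p the *Tet2/3* DKO mice spread from 2498 to 8123 CPM around the WT mice (from 4257 to 5892 CPM), and for mir-146b WT replicate 3, at 624.99 CPM, stands above the other WT mice.

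For miR-146a-5p the means of the genotypes lay close together, and the *Tet2/3* DKO mice spread to both sides of the WT mice. In WT mice it was 4540, 4645, 4257, 5518, 5892 and 4312 CPM (replicates 1 to 6). In *Tet2/3* DKO mice it was 2498, 2995, 8123, 5444, 4224, 7431 and 3383 CPM (replicates 1 to 7). Of the 7 *Tet2/3* DKO mice, 4 were below every WT mouse, 2 (replicates 3 and 6) were above every WT mouse and 1 was in between. The WT mean was 4861 ± 680 CPM (SD, n = 6), and the *Tet2/3* DKO mean 4871 ± 2207 CPM (SD, n = 7). The log2 fold change was 0.0031 (SE 0.26, 95% interval from -0.55 to 0.56, edgeR adjusted p = 0.993). The interval leaves room for a change of either sign, and in the 13 fits that each left out 1 mouse, with scaling factors estimated anew, the sign was negative in 11 (from -0.23 to 0.084).

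The SD of log2 CPM of miR-146a-5p was 0.195 in WT and 0.654 in *Tet2/3* DKO. Among the other 161 mature sequences with a mean of at least 100 CPM, the median SD was 0.213 in WT and 0.261 in *Tet2/3* DKO. Thus 41.6% of them had a smaller SD than miR-146a-5p in WT and 95.7% in *Tet2/3* DKO. The highest *Tet2/3* DKO mouse had 3.25 times the level of the lowest, against 1.38 times in WT. This spread was noticed in the values and is a description, with no test attached.

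The hairpin of miR-146a put the *Tet2/3* DKO mice in the same order as the arm did, and the WT mice in a different one. It was at 6158, 7209, 6655, 8002, 9925 and 6619 CPM in WT (replicates 1 to 6). In *Tet2/3* DKO it was at 2569, 4046, 9814, 6433, 5488, 8514 and 4607 CPM (replicates 1 to 7). Here 4 *Tet2/3* DKO mice were below every WT mouse, 3 were within the WT range and 0 were above it, with replicates 3 and 6 again the highest. The WT mean was 7428 ± 1377 CPM (SD, n = 6) and the *Tet2/3* DKO mean 5924 ± 2543 CPM (SD, n = 7). The log2 fold change was -0.33 (SE 0.26, interval from -0.88 to 0.22, edgeR adjusted p = 0.285), which was 0.014 with library size as the only scaling. After subtraction of the genotype means, log2 CPM of the hairpin and of the arm had a Pearson correlation of 0.968 over the 13 mice (Spearman 0.956), and 0.958 without *Tet2/3* DKO replicates 1 and 3. Hairpin and arm were counted from the same libraries, so this correlation describes the libraries and has no p-value.

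For miR-146b the order of the genotypes was the other way round, and whether the difference was called turned on a single WT mouse, and also on the scaling and on the replicate block. The mir-146b hairpin was at 198, 159, 624.99, 245, 161 and 187 CPM in WT (replicates 1 to 6). In *Tet2/3* DKO it was at 322, 291, 423, 372, 243, 665 and 352 CPM (replicates 1 to 7). WT replicate 3 was 2.55 times as high as the next WT mouse, and 6 of the 7 *Tet2/3* DKO mice were above the other 5 WT mice. With all mice the WT mean was 263 ± 180 CPM (SD, n = 6), the *Tet2/3* DKO mean was 381 ± 138 CPM (SD, n = 7), and the log2 fold change was 0.53 (SE 0.34, interval from -0.20 to 1.25, edgeR adjusted p = 0.191). Without WT replicate 3 it was 1.04 (SE 0.22, interval from 0.58 to 1.49, edgeR adjusted p = 0.000545). The WT mean was then 190 ± 35.1 CPM (SD, n = 5). This fit leaves out the WT mouse with the highest level, so its p-value is not separate evidence of a difference.

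Mature miR-146b-5p put the genotypes in the same order at lower counts, between 24 and 293 per library. It was at 22.5, 36.9, 75.3, 37.6, 29.6 and 41.9 CPM in WT (replicates 1 to 6). In *Tet2/3* DKO it was at 45.8, 44.7, 57.6, 55.6, 52.4, 70.9 and 51.6 CPM (replicates 1 to 7). Every *Tet2/3* DKO mouse was above the 5 WT mice other than replicate 3, and every one was below WT replicate 3. The means were 40.6 ± 18.3 CPM (SD, n = 6) and 54.1 ± 8.79 CPM (SD, n = 7), with a log2 fold change of 0.40 (SE 0.23, interval from -0.083 to 0.88, edgeR adjusted p = 0.152). Without WT replicate 3 the log2 fold change was 0.60 (SE 0.21, interval from 0.18 to 1.03, edgeR adjusted p = 0.0182), and the WT mean was 33.7 ± 7.64 CPM (SD, n = 5). Here too the mouse left out had the highest WT level, so this p-value is not separate evidence. In contrast to miR-146a-5p, the SD of log2 CPM was larger in WT (0.574) than in *Tet2/3* DKO (0.224). It exceeded that of 97.5% (WT) and 35.2% (*Tet2/3* DKO) of the 162 mature sequences with a mean of at least 100 CPM. Those sequences have higher counts than miR-146b-5p and so less counting noise. After subtraction of the genotype means, log2 CPM of miR-146b-5p and of its hairpin had a Pearson correlation of 0.801 over the 13 mice (Spearman 0.621). Without *Tet2/3* DKO replicate 6 and WT replicate 3 the Pearson correlation was 0.271, so it rested largely on these mice.

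WT replicate 3 was also the highest WT library for mir-223 and mir-155, as the plot of mir-146b, mir-223 and mir-155 shows. The myeloid miRNA mir-223 was at 309.9 CPM in this library and between 20.1 and 59.9 CPM in the other 5 WT libraries, and *Tet2/3* DKO libraries had at most 19.2 CPM. Mature miR-223-3p was at 91.7 CPM in it and between 2.30 and 16.9 CPM in the other WT libraries. The mir-155 hairpin, of a miRNA induced in activated lymphocytes and macrophages, was at 299.7 CPM against between 119 and 146.2 CPM in the other 5. The summed level of the T cell hairpins named above was the lowest of the WT libraries in WT replicate 3 (154541 CPM). Most of that sum was mir-142a, at 103641 CPM in it against a WT mean of 103246 CPM. The level of mir-150 was also near its WT mean (19611 against 20606 CPM), while mir-181a-1 was at its lowest WT level (26473 CPM). WT replicate 3 was the highest WT library for 58 of the 350 tested hairpins (16.6%). Over the WT libraries this share ran from 7.43% (replicate 2) to 22.3% (replicate 1). Among mature sequences the share was up to 21.2% (replicate 5) and was 12.2% for WT replicate 3. Its level of mir-146a, 6655 CPM, was within the range of the other 5 WT libraries, as were its summed levels of the red cell hairpins (729 CPM) and stroma hairpins (108 CPM) described next. The endothelial hairpin mir-126a was outside the range of the other 5, at 234 CPM against 152 in the next WT library. Of the 11 induced hairpins described further on, 5 were highest in WT replicate 3. Besides mir-155 these were mir-221 (78.5 against 46.1 CPM), mir-222 (52.0 against 37.2 CPM), mir-132 (242 against 206 CPM) and mir-301a (734 against 724 CPM). Of the 9 mature sequences of that list 2 were highest in it. The part of other cell types in the mir-146b level of this library was not tested.

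**Figure D2:**
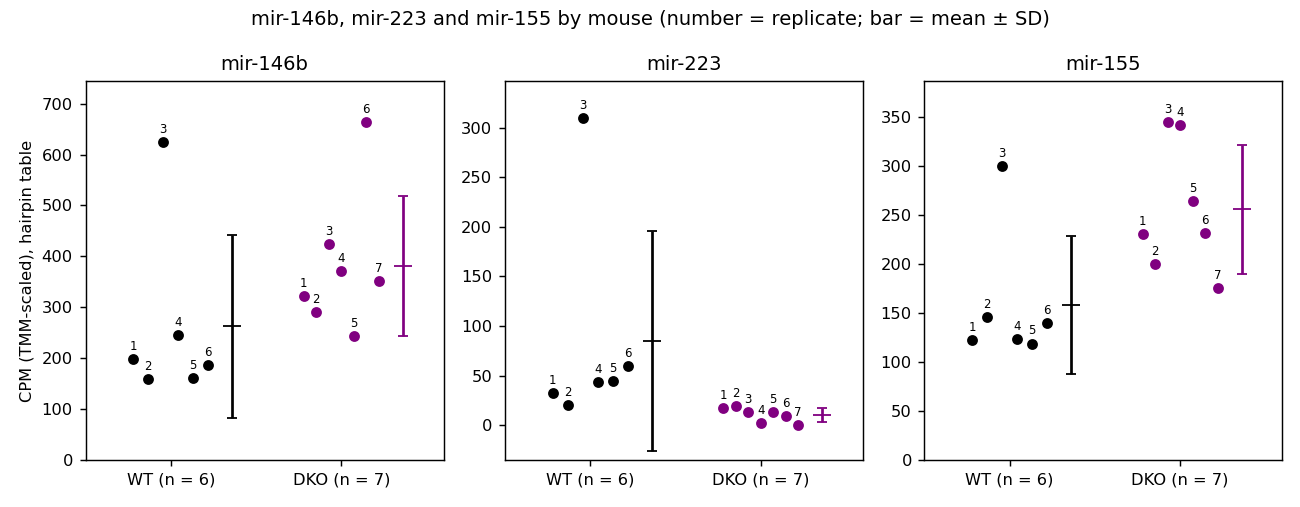
Hairpin levels of mir-146b, mir-223 and mir-155 in CPM of the TMM-scaled library on linear axes, 1 point per mouse labelled with its replicate number, WT in black (n = 6) and *Tet2/3* DKO in purple (n = 7), bars for the mean ± SD (the axis for mir-223 reaches below 0 to show the whole bar). WT replicate 3 is the highest WT mouse in all 3 panels, at 624.99, 309.9 and 299.7 CPM.

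Marker miRNAs of other cells also differed between genotypes. The myeloid hairpin mir-223 was lower in *Tet2/3* DKO (log2 fold change -3.002, SE 0.72, edgeR adjusted p = 0.00249), and its log2 fold change was -1.86 without WT replicate 3 (SE 0.54, edgeR adjusted p = 0.00650). The 2 tested hairpins of the 3 on the red cell list and the 3 tested of the 5 on the stroma list were also lower, where 27.1% of all tested hairpins were. Summed over the list, red cell hairpins (mir-451a, mir-144 and mir-486a) reached 462 to 1237 CPM (WT) and 93.1 to 343 CPM (*Tet2/3* DKO). Stroma hairpins (mir-199a-1, mir-199a-2, mir-143, mir-145a and mir-214) reached 49.3 to 138 CPM (WT) and 8.89 to 30.7 CPM (*Tet2/3* DKO). Of these, mir-199a-1 and mir-199a-2 had nearly the same counts (129 and 136 over WT libraries, 66 and 72 over *Tet2/3* DKO libraries). They may hold the same reads, so they are not separate observations and the sum may count reads more than once. The hepatocyte hairpin mir-122 had too few counts to be tested, with at most 22.8 CPM in a WT library and 2.98 CPM in a *Tet2/3* DKO library. Of the epithelial list 3 of 4 hairpins (mir-200c, mir-141 and mir-203) were tested and 0 were called by edgeR at adjusted or unadjusted p, and mir-205 had 6 counts in WT and 1 in *Tet2/3* DKO over all libraries. The endothelial hairpin mir-126a was not called (-0.13, SE 0.19, edgeR adjusted p = 0.573). Of the T cell hairpins, mir-181a-1 and mir-181b-1 were higher and mir-150 and mir-142a were lower. Their mature arms miR-181a-5p (-0.032, edgeR adjusted p = 0.832) and miR-181b-5p (0.19, edgeR adjusted p = 0.210) were not called. The arms miR-150-5p (-1.18) and miR-142a-3p (-0.41) were lower. In the mature table the myeloid, red cell and stroma arms that were tested were again lower, as were miR-122-5p (-3.87) and 2 of 3 epithelial arms, where 27.4% of all tested mature sequences were, and miR-126a-3p was higher (0.69). Whether these lists have a part in the miR-146 values was not tested.

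The members were then compared with each other within each library, where library scaling cancels. The count of mir-146a was 31.9 times that of mir-146b in WT (geometric mean) and 14.96 times in *Tet2/3* DKO. In WT the ratio was 31.0, 45.1, 10.6, 32.5, 61.3 and 35.3 (replicates 1 to 6). In *Tet2/3* DKO it was 7.98, 13.9, 23.2, 17.3, 22.6, 12.8 and 13.1 (replicates 1 to 7). All *Tet2/3* DKO ratios were thus below those of the 5 WT mice other than replicate 3. The log2 ratio averaged 4.99 ± 0.857 over WT mice (SD, n = 6) and 3.903 ± 0.535 over *Tet2/3* DKO mice (SD, n = 7), a difference of -1.09 (two-sided exact permutation test, p = 0.0198, adjusted over the 6 tests of this kind p = 0.0594). The difference was not past the threshold after adjustment. Without WT replicate 3 it was -1.41 (exact permutation test, adjusted p = 0.0152). Leaving out the only overlapping WT mouse ended the overlap of the genotypes. This p-value thus follows from the choice of mouse and is not separate evidence.

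The same ratio of the 5p arms was 126 in WT and 83.2 in *Tet2/3* DKO (geometric means). It ranged from 56.4 to 197 in WT and from 54.4 to 141 in *Tet2/3* DKO, with overlap. The mean log2 ratio was 6.98 ± 0.681 (SD, n = 6) and 6.38 ± 0.472 (SD, n = 7), a difference of -0.60 (exact permutation test, p = 0.0886, adjusted p = 0.177). Without WT replicate 3 it was -0.84 (exact permutation test, adjusted p = 0.0303). Again WT replicate 3 was the WT mouse with the lowest ratio, so the fit without it is not separate evidence. Across mice, log2 CPM of the 5p arms had a Pearson correlation of 0.227 over all 13 mice after subtraction of the genotype means (Spearman 0.308), and 0.042 without *Tet2/3* DKO replicates 3 and 6. Within *Tet2/3* DKO it was 0.873 (n = 7) and within WT -0.43 (n = 6). These are descriptions of a few mice and have no p-value.

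**Figure D3:**
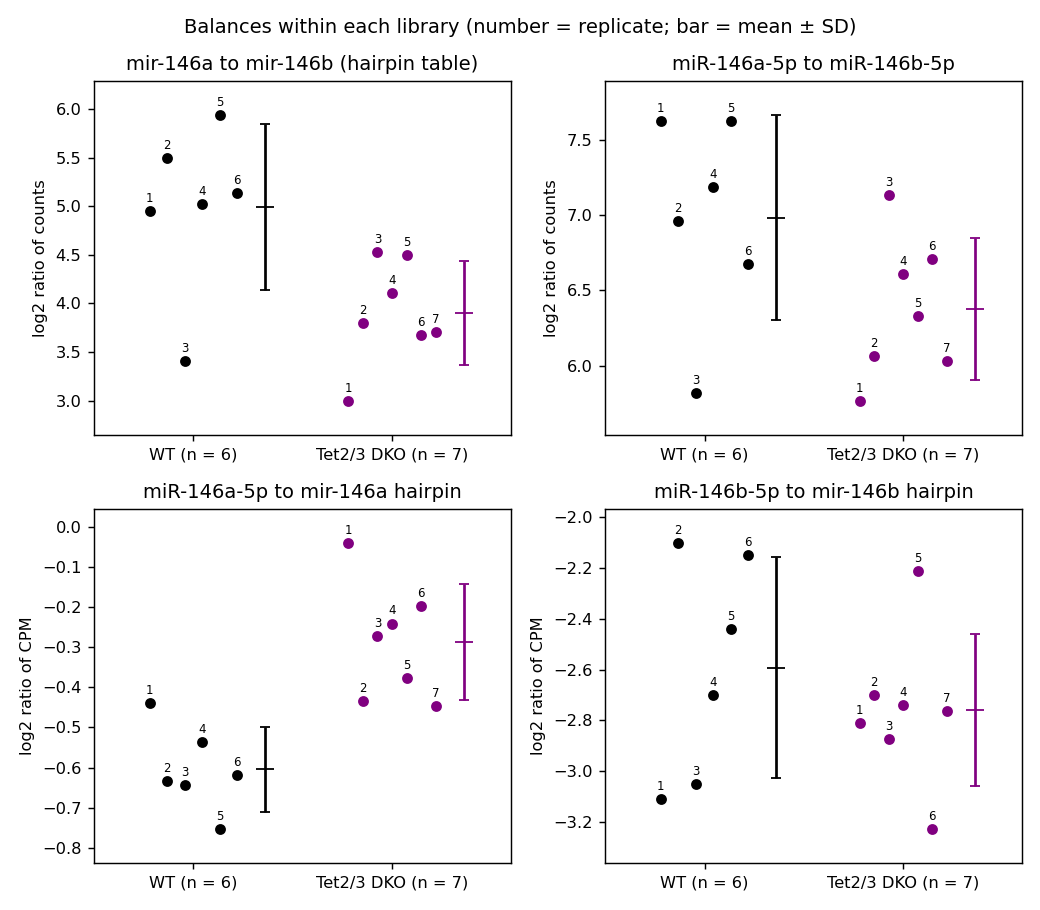
Log2 ratio of mir-146a to mir-146b counts and of miR-146a-5p to miR-146b-5p counts (upper row) and log2 ratio of the CPM of each 5p arm to that of its hairpin (lower row) within each library, 1 point per mouse labelled with its replicate number, WT in black (n = 6), *Tet2/3* DKO in purple (n = 7), bars for the mean ± SD. In the lower left panel the WT mice lie between -0.75 and -0.44 and the *Tet2/3* DKO mice between -0.45 and -0.040.

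The 5p arm of miR-146a was higher relative to its own hairpin in *Tet2/3* DKO. The log2 ratio of the CPM of miR-146a-5p to the CPM of mir-146a was -0.44, -0.63, -0.64, -0.54, -0.75 and -0.62 in WT (replicates 1 to 6). In *Tet2/3* DKO it was -0.040, -0.43, -0.27, -0.24, -0.38, -0.20 and -0.45 (replicates 1 to 7). Library scaling does not cancel in this ratio, which rests on the scaling factors of both the hairpin and the mature counts. With TMM scaling only the highest WT mouse (replicate 1) and the lowest *Tet2/3* DKO mouse (replicate 7) overlapped. They are the shallowest libraries of their genotypes, and which mice overlap depends on the scaling. The means were -0.60 ± 0.11 (SD, n = 6) and -0.29 ± 0.15 (SD, n = 7), a difference of 0.32 (two-sided exact permutation test, p = 0.00233, adjusted over 6 tests p = 0.0140). Under the 6 alternative settings this difference ran from 0.22 to 0.43, and 5 of them kept it past the threshold. The exception was the replicate block. The difference was also past the threshold in each of the 13 sets that left out 1 mouse (from 0.28 to 0.35). A difference of this size was common among the pairs of hairpin and arm that could be joined. Over the 219 hairpins that could be joined to a tested arm by name, the quartiles of the same difference for the others were -0.31 and 0.34 with a median of 0.057, and 72.9% of the others were below the value of miR-146a. A hairpin with a copy number in its name was joined only to an arm that bears this number. Thus mir-24-1 was joined to miR-24-1-5p and not to the abundant miR-24-3p, and this background is rough.

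For miR-146b the log2 ratio of arm to hairpin averaged -2.59 ± 0.436 over WT mice (SD, n = 6) and -2.76 ± 0.300 over *Tet2/3* DKO mice (SD, n = 7), a difference of -0.17 (exact permutation test, p = 0.418, adjusted p = 0.502). The members also differed in how their reads were divided between the tables. The hairpin count of mir-146a was 57.1% of the count of its 5p arm over all libraries, beside a median of 57.3% for the other joined hairpins. For mir-146b it was 306%, a larger percentage than for 84.9% of the others. The others include hairpins joined to a minor arm, such as mir-24-1 (290605%), so the median and this rank are rough. Whether a read could be counted in both tables is not given in the sources used here, so this percentage describes the tables and not the processing of the hairpin in cells.

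Summed over the seed family, mature miR-146 was at a geometric mean of 4865 CPM in WT (from 4332 to 5922 CPM) and 4516 CPM in *Tet2/3* DKO (from 2544 to 8181 CPM). The mean log2 difference was -0.11 (exact permutation test, p = 0.690, adjusted p = 0.690). For the summed hairpins it was -0.38 (exact permutation test, p = 0.186, adjusted p = 0.280). The sums follow miR-146a, which made up nearly all of the counts.

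The plot of the 4 sequences under each setting shows how far these differences depend on the mice and on the processing.

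**Figure D4:**
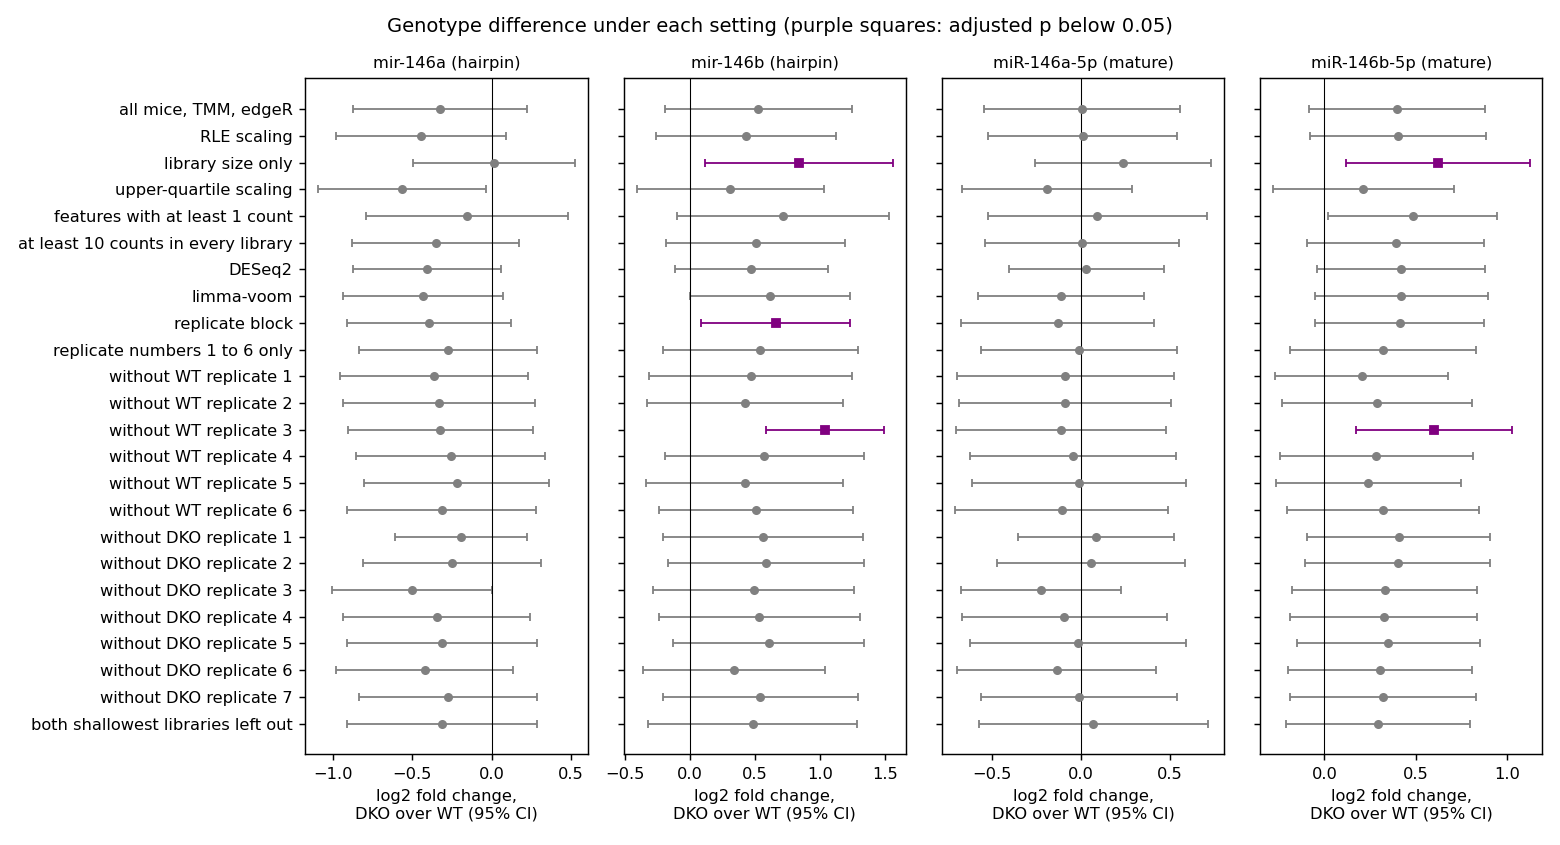
Log2 fold change of *Tet2/3* DKO over WT with its 95% interval for mir-146a, mir-146b, miR-146a-5p and miR-146b-5p (4 panels), with 1 row for the fit with all mice and for each alternative, and purple squares where the adjusted p-value was under 0.05. The fit without WT replicate 3 gives 1.04 for mir-146b and 0.60 for miR-146b-5p, the fit with library size only also passes for both and the replicate block for mir-146b, and no row of mir-146a or miR-146a-5p is past the threshold.

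The other miRNAs that NF-kB and antigen receptor signalling are known to induce were taken as a list. The list, written with earlier results of these data known, held 11 hairpins, of which 7 had enough counts. Of these 5 were higher in *Tet2/3* DKO, 0 were lower and 2 were not called by edgeR, where 32.6% of all tested hairpins were higher and 27.1% were lower. Their median log2 fold change was 0.68, against 0.021 over all tested hairpins. The higher ones were mir-155, mir-21a, a regulator of T cell survival that rose by 0.77 (SE 0.10, edgeR adjusted p = 5.77e-06), mir-301a (0.94) and the members of the mir-132 and mir-212 cluster (0.67 and 1.59). For mir-155, which shares the induction by NF-kB with miR-146a, the log2 fold change was 0.68 (SE 0.23, edgeR adjusted p = 0.0141), 1.02 without WT replicate 3, and 0.44 with upper-quartile scaling (edgeR adjusted p = 0.0957), which ended the call. The cluster members mir-221 (-0.59) and mir-222 (-0.34) did not pass the threshold. Under 9 of the 10 alternative settings mir-221 stayed short of it, and the number of listed hairpins called lower ranged from 0 to 1.

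Of the 9 mature sequences of the list 8 were tested, 4 were higher and 1 was lower in *Tet2/3* DKO, where 28.2% of all tested mature sequences were higher and 27.4% were lower. The median log2 fold change was 0.37, against -0.0080 over all tested mature sequences. Mature miR-132-3p rose by 1.10 (SE 0.19, edgeR adjusted p = 4.11e-05), miR-212-3p by 1.25, miR-301a-3p by 0.72 and miR-21a-5p by 0.27, while miR-221-3p fell by 0.57. The call of miR-221-3p was lost with library size only (-0.33, edgeR adjusted p = 0.208) and when every sequence with at least 1 count was kept (-0.47, edgeR adjusted p = 0.0575). Mature miR-9-5p (-0.70) and miR-222-3p (-0.35) did not pass the threshold. The rise of miR-21a-5p was past the threshold in 1 of the 13 fits that left out 1 mouse, the one without *Tet2/3* DKO replicate 6. Mature miR-155-5p averaged 76.0 ± 33.9 CPM over WT mice (SD, n = 6) and 105 ± 35.7 CPM over *Tet2/3* DKO mice (SD, n = 7), and its log2 fold change of 0.46 was not past the threshold (SE 0.25, edgeR adjusted p = 0.129). Without WT replicate 3 it was 0.64 (edgeR adjusted p = 0.0219), and with this mouse kept it was also past the threshold with library size only (0.70, edgeR adjusted p = 0.0303), with every sequence of at least 1 count (0.54, edgeR adjusted p = 0.0382) and with the replicate block.

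**Figure D5:**
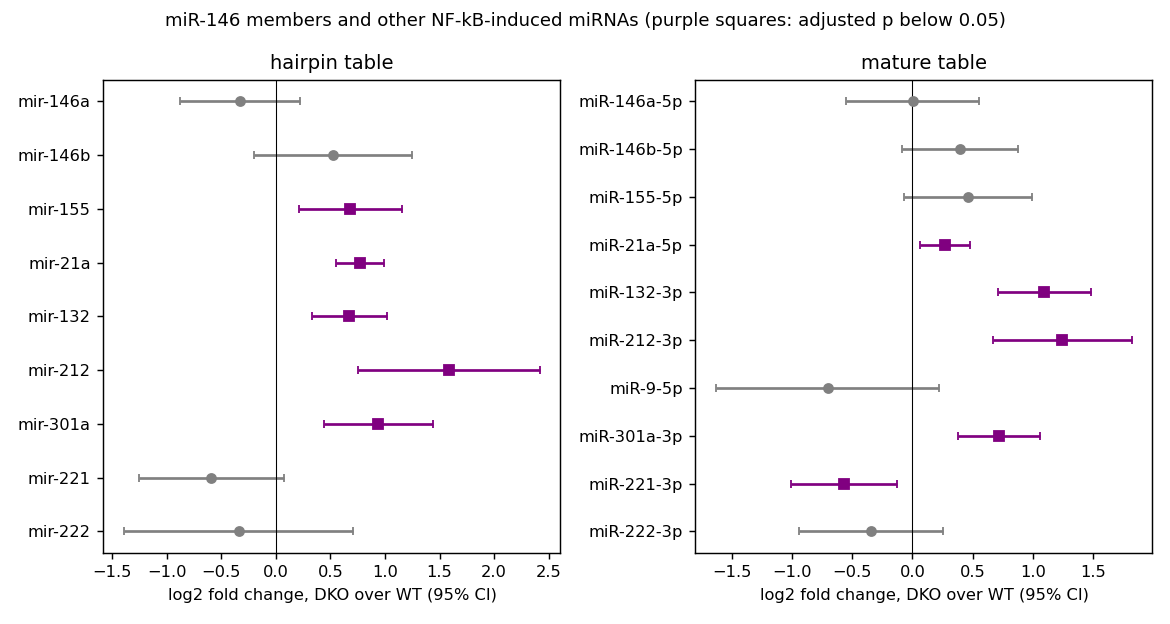
Log2 fold change of *Tet2/3* DKO over WT with its 95% interval for the miR-146 members (top 2 rows) and the tested miRNAs of the list of NF-kB-induced miRNAs, hairpins on the left and mature sequences on the right, with purple squares where the adjusted p-value was under 0.05. The hairpins mir-155, mir-21a, mir-132, mir-212 and mir-301a lie to the right of 0 with their whole interval, and the intervals of mir-146a (from -0.88 to 0.22) and mir-146b (from -0.20 to 1.25) include 0.

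The mature sequences whose levels followed the members most closely from mouse to mouse were found by the Pearson correlation of log2 CPM after subtraction of the genotype means, over 13 mice. Among 161 sequences with a mean of at least 100 CPM, those most like miR-146a-5p were miR-194-5p (r = 0.816), miR-467c-5p (0.773), miR-139-5p (0.735), miR-7a-5p (0.702) and miR-150-3p (0.679). For miR-194-5p r was 0.929 within *Tet2/3* DKO (n = 7) and -0.18 within WT (n = 6), while for miR-139-5p r was 0.770 in WT and 0.736 in *Tet2/3* DKO. Most like miR-146b-5p among 162 sequences were miR-128-3p (0.801), miR-181a-2-3p (0.706), miR-126a-3p (0.444), miR-15b-5p (0.421) and miR-466f (0.419). For miR-128-3p r was 0.929 within WT and 0.190 within *Tet2/3* DKO, while for miR-181a-2-3p r was 0.741 in WT and 0.854 in *Tet2/3* DKO. No sequence was on the lists of both members. Lists of 5 drawn from 161 and 162 sequences would seldom share one, so this is not a result about the members. All these levels share the same libraries and the same scaling factors, and the correlations are descriptions with no test.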

How the data were processed

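The authors sorted thymic iNKT cells by FACS, prepared small RNA libraries, processed the reads with nf-core/smrnaseq under default parameters and deposited raw counts per hairpin and per mature sequence, one column per mouse. The aligner, the miRNA database release and the treatment of reads that match several sequences are not given in the sources used here. Each column's name gives the genotype and replicate of its label, and the number of columns left unused was 0. Nothing in the labels says whether mice shared a litter, and no pair of libraries of a genotype was alike within sampling noise (chi-square per degree of freedom at least 17.6 over the 72 pairs in both tables).

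From these counts, features were kept by filterByExpr (minimum count 10, minimum total 15) of edgeR 4.0.16 and tested on genotype alone with TMM factors and the robust quasi-likelihood fit, with Benjamini-Hochberg adjustment over each whole table (R 4.3.3, limma 3.58.1, DESeq2 1.42.0). A standard error is the log2 fold change divided by the root of F. Balances and sums were compared by two-sided exact permutation tests over the 1716 assignments of mice (scipy 1.17.1), with 0.5 added to each count except in the sums, and adjusted over 6 tests. The smallest p that design allows is 0.00117. The test script was checked on simulated data. Reads carry no molecular identifiers in the counts.

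The members, gene lists, tests and alternatives were chosen with earlier results of these data known, the study's own result tables included. Named miRNAs are the members, the lists of NF-kB-induced miRNAs and of cell type markers, and the 5 closest patterns per member. The mir-223, mir-155 and T cell values of WT replicate 3 were picked from those lists after they were seen. The alternatives were other scalings and filters, DESeq2, limma-voom, the replicate number as a block, other added counts, and leaving out each mouse or both shallowest libraries. The fit on replicate numbers 1 to 6 without a block was chosen after seeing the data. Sequences and positions come from RefSeq (GRCm38.p6) and GENCODE M21 (GRCm38). The labels name mm10, and the tables hold no coordinates.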

Additional observations from a re-analysis of the deposited data

Results flagged for a closer look

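Levels and balances of the members, and levels of the listed miRNAs, were checked within each genotype for a mouse far from the others, in 78 groups, of which about 3.9 would be expected by chance and 6 were found. WT replicate 3 had the highest WT level of mir-146b (9.29 log2 CPM, next 7.94) and of mir-155 (8.23, next 7.20). WT replicate 1 had the lowest WT level of mir-132 (6.71, next 7.57) and the highest of miR-9-5p (3.86, next 2.74). WT replicate 6 had the lowest WT level of mir-142a (16.28, next 16.63). Among *Tet2/3* DKO mice, mir-222 was lowest in replicate 3 (2.94, next 4.23).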

How the results depend on the processing

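With library size as the only scaling, the log2 fold change of mir-146a was 0.0137, that of mir-146b 0.84 and that of miR-146b-5p 0.62, the last 2 of them past the threshold (edgeR adjusted p = 0.0441 and 0.0349), and the mature family sum differed by 0.14. The sign of miR-146a-5p turned with upper-quartile scaling (-0.19), with limma-voom (-0.12), with the replicate block (-0.13) and with replicate numbers 1 to 6 only (-0.0139, chosen after seeing the data). That of mir-222 turned with limma-voom (0.062). The cause was not tested, beyond the shift that another scaling gives to all miRNAs.

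Same-numbered mice did not deviate together (correlations from -0.058 to 0.346 for hairpins and from 0.015 to 0.343 for mature sequences over 6 pairs), and 1 of 6 and 2 of 6 mice correlated best with their own number, so the numbers were not taken as pairs. With the replicate block on numbers 1 to 6, mir-146b was past the threshold (0.66, edgeR adjusted p = 0.0457), and the arm to hairpin ratio of miR-146a differed by 0.34 with an exact paired p of 0.03125, the smallest that 6 pairs allow, and 0.1875 after adjustment. The block also moved miR-155-5p past the threshold (0.50) and miR-21a-5p short of it (0.21). It moved the calls of 24 of 29 results not at all.

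Leaving out 1 mouse at a time gave -0.50 to -0.20 for mir-146a, 0.34 to 1.04 for mir-146b, -0.23 to 0.084 for miR-146a-5p and 0.20 to 0.60 for miR-146b-5p. The log2 ratio of the hairpins differed by -1.41 to -0.90 and that of the 5p arms by -0.84 to -0.48. The arm to hairpin ratio differed by 0.28 to 0.35 for miR-146a and by -0.27 to -0.071 for miR-146b. The family sums differed by -0.52 to -0.22 for hairpins and -0.25 to 0.031 for 5p arms, and mir-222 by -0.56 to 0.11. Leaving out WT replicate 3 brought mir-146b, miR-146b-5p and both ratios of miR-146a to miR-146b past the threshold. That mouse had the highest WT levels of miR-146b and the lowest WT ratios, so these passes are not separate evidence. Of the 200 alternative values for the members, 174 kept their direction and side of the threshold, 18 changed sign, 7 newly passed the threshold and 1 no longer did. The count of called features stayed within 1.5 times under every setting (from 181 to 288 hairpins and from 167 to 272 mature sequences). Counts of 24 to 293 per library limit miR-146b-5p, and counts of at most 6 limit the 3p arms.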
